A study of Mus musculus with 2 samples.

Results

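Chemokines are small secreted or membrane-held proteins that guide leukocytes, and their receptors are G protein-coupled receptors on the cells that respond. Both were followed here in uterine stromal cells of pregnant mice with and without Hand2, which encodes a stromal transcription factor of the basic helix-loop-helix class. The members were all array probe sets annotated with exactly 1 gene symbol made of Ccl, Cxcl, Ccr or Cxcr with a number and an optional letter, together with Cx3cl1, Cx3cr1, Xcl1, Xcr1, Pf4 and Ppbp, with Cxcl15 left out. This gave 77 of 34945 probe sets with 1 gene and 50 of 18193 genes, of which 34 were ligands with 51 probe sets and 16 were receptors with 26 probe sets. The rule uses symbols and no measured value, although it was set with earlier results of these data known.

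RNA came from stromal cells isolated on day 4 of pregnancy, counted from the vaginal plug as day 1, and was measured on 1 Affymetrix array for each genotype. The control mice carried floxed Hand2. The Hand2-null mice came from crossing floxed Hand2 with PRcre, in which Cre is made from the progesterone receptor locus, so that recombination is not limited to the stroma. Both arrays are labelled with the same mixed background, listed as Prcre, C57BL/6 and SV129, which leaves unstated whether the control mice carried the PRcre allele. RNA of the mice of a genotype was pooled, and the labels disagree on their number per genotype, with 5 in the design text and 4 where the extraction is described. With 1 pool per genotype there was no replicate error, and neither a test nor a p-value could be given for any difference. Precision is limited by this number of arrays.

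The values are MAS5 signals, a linear measure of probe set brightness. The floor of each array was the 60th percentile of its non-control probe sets, 64.2 in the control and 67.5 in the Hand2-null array, and a gene counted as measured if its brightest probe set was not below the floor on both arrays. The log2 ratio is that of Hand2-null over control after lower signals are set to the floor. In place of a replicate error, probe sets of the same gene differed by an SD of 0.19 in log2 ratio over 3665 genes. This holds no variation between mice. Hand2 itself read 1545 in the control array but only 38.5, a value under the floor, without Hand2, a difference of at least 22.9-fold. The position of that probe set relative to the deleted part is not known here. As for the labelled cell type, 13 of 13 stromal markers were measured, with a median log2 ratio of -0.03, but so were 12 of 12 epithelial and 9 of 9 smooth muscle markers, so that the isolates were not stroma alone.

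Chemokines are named by the spacing of their conserved cysteines as CC, CXC, XC or CX3C. Inflammatory members such as Cxcl1 and Ccl2 are induced through NF-kB, interferon-induced members such as Cxcl10 attract T and natural killer cells, and homeostatic members such as Cxcl12 are made steadily by stromal cells. In the pregnant uterus they place macrophages, natural killer cells and other leukocytes, and mouse decidual stromal cells are known to silence several T cell-attracting chemokine genes.

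The bases just upstream of Cxcl1, Cxcl2, Cxcl3 and Cxcl10 are shown because they hold matches to the DNA consensus of NF-kB and the transcripts of all 4 were brighter without Hand2. They were picked after their values and motifs were seen. Each is the stretch of 120 bases that ends 1 base before the start site, 5′ to 3′ on the gene's strand, from RefSeq on GRCm38.p6. Capitals mark matches to the NF-kB consensus. The stretches lie at chr5:90891125-90891244 on the plus strand for Cxcl1, chr5:90903779-90903898 on the plus strand for Cxcl2, chr5:90785981-90786100 on the plus strand for Cxcl3 and chr5:92348890-92349009 on the minus strand for Cxcl10.
Cxcl1: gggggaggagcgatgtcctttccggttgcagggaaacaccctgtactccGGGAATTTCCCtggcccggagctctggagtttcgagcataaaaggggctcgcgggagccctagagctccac
Cxcl2: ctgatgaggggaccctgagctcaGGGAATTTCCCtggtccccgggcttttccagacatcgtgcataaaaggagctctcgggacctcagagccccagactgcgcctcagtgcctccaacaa
Cxcl3: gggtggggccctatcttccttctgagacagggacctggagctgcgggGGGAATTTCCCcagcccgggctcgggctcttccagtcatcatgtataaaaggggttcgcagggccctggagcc
Cxcl10: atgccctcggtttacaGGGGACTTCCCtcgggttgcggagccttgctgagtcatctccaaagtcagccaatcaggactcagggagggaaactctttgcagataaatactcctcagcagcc

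Of the 50 member genes 37 had a promoter sequence in the RefSeq table, and the 250 bases before the start were searched on both strands. The other 13, among them Cxcl16, Ccl2 and Ccl11, had no sequence there and were not searched. A match to the NF-kB consensus was found in 10 of the 37, of which 7 were among 24 ligands and 3 among 13 receptors, against 8.23% of all 27025 genes with a promoter sequence. Besides those shown, the holders were Ccl9 and Ccr1, at log2 ratios of 0.38 and 0.23. Ccl1, Ccl20, Ccr3 and Ccr6 also held a match, and all were under the floor in both arrays. The same 11 letters, GGGAATTTCCC, stood in Cxcl1, Cxcl2 and Cxcl3 and in 14 genes of the table in all. Cxcl10 and Cxcl14 held the letters GAAA on both sides of a gap of 2 bases, a core of interferon-regulatory elements found in 3.46% of all genes. The E-box letters CATCTG, a form that basic helix-loop-helix factors can bind, were found in 9 of the 37 against 16.3% of all genes. The holders included Ccl28, Cxcl10, Ccl3, Ccl8 and Ccl12 among measured ligands, and Ccr1 and Cx3cr1 among receptors. A match is only a run of letters, and no binding was measured.

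Most measured ligands were brighter in the Hand2-null array, by less than 2-fold in nearly every case. Most measured receptors were brighter as well, while Cx3cr1 was lower. Of the 50 member genes 28 were measured, of which 26 were at or above the floor in both arrays. Ccl11 was above it only in the Hand2-null array, so that it could not come out lower, and Cxcr3 only in the control array. Of the 22 measured ligands 19 had a positive log2 ratio and 3 a negative one, with a median of 0.53 and a range of -0.23 to 1.12. Of the 6 measured receptors 4 had a positive and 2 a negative log2 ratio, with a median of 0.20 and a range of -0.63 to 0.83. The 2 negative ones were Cx3cr1, at -0.63, and Cxcr3, at only -0.06. Over all 10371 measured genes 44.7% had a log2 ratio above 0 and 55.3% one below 0, with a median of -0.03. The middle 50% of all measured genes ran from -0.20 to 0.16. The receptor values overlapped those of the ligands. The ligand median exceeded the receptor median by 0.33, a description of these pools that was not tested. Over members above the floor in both arrays, a restriction chosen after seeing the data, 18 of 21 ligands were higher. The ligand median was then 0.46, and it exceeded the receptor median by 0.225.

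At least 2-fold higher were 2 members, Cxcl16 and Ccl11, where 1.99% of all measured genes were. Of these, Ccl11 was measured only through the Hand2-null array and could not come out lower. At least 2-fold lower were 0 members, where 0.742% of all genes were. At least 1.5-fold higher were 12 members, against 6.21% of all measured genes, and 1 member was at least 1.5-fold lower, against 3.33%. Of these 12, 11 were ligands and the other was the receptor Cxcr6.

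**Figure D1:**
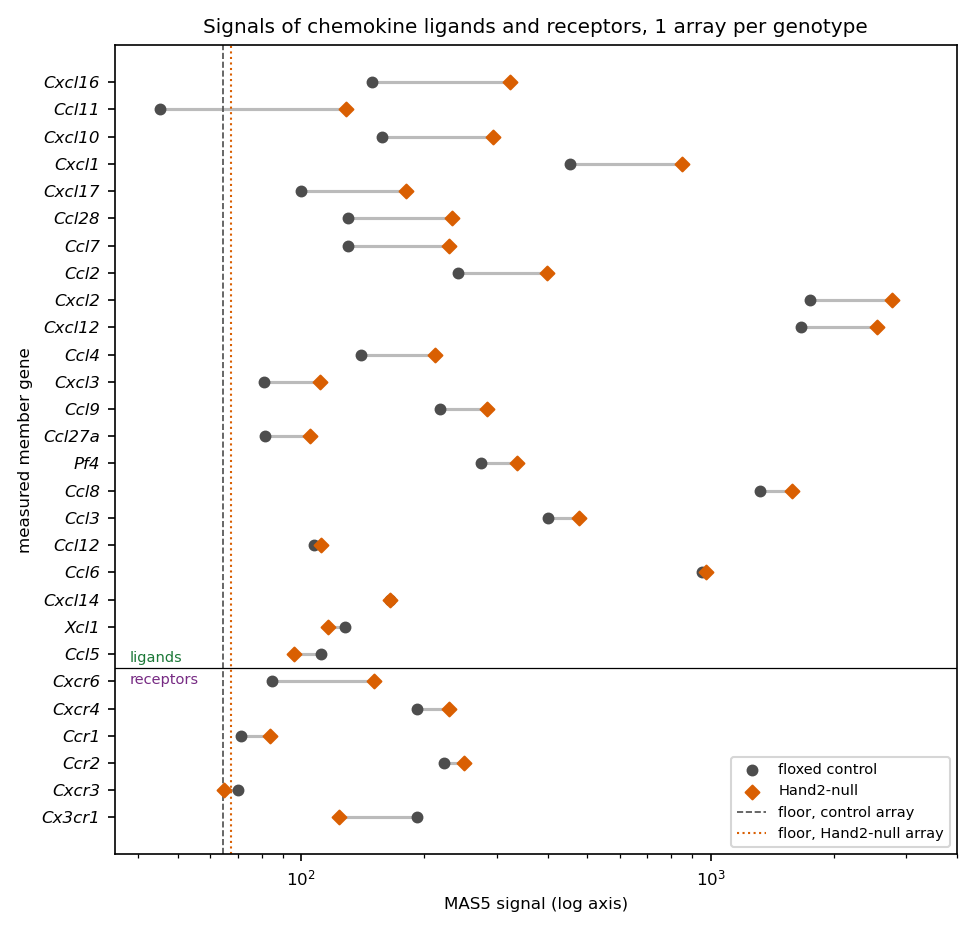
MAS5 signals on a log axis of the 28 measured chemokine and receptor genes, with the control array as circles, the Hand2-null array as diamonds and both floors as vertical lines. Ligands are sorted by log2 ratio from Cxcl16, at 149 and 323, down to Ccl5, at 112 and 95.7, and Cx3cr1 is the receptor with the lowest ratio.

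**Figure D2:**
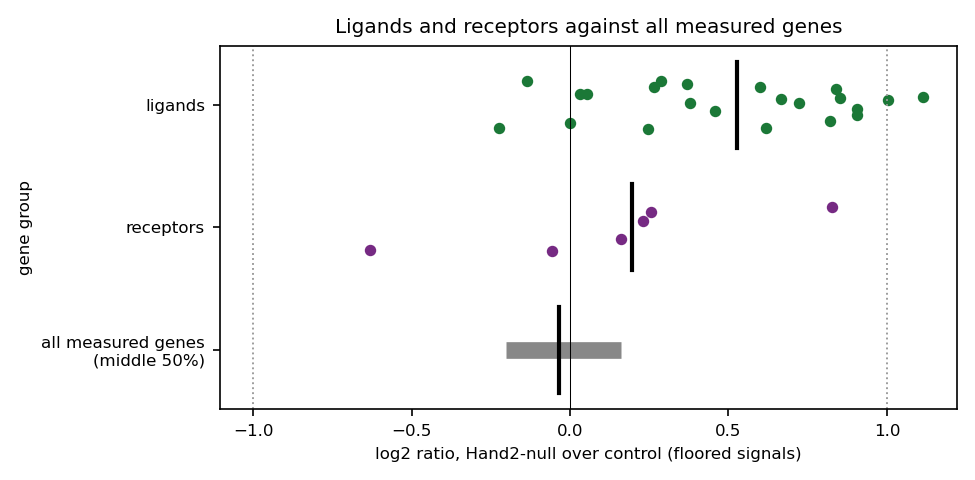
Log2 ratio of Hand2-null over control for 22 ligands and 6 receptors, 1 point per gene with the median as a black bar, above the middle 50% of all 10371 measured genes as a grey bar. The ligand median of 0.53 and the receptor median of 0.20 lie to the right of the median of all genes, -0.03, and dotted lines mark 2-fold.

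Cxcl16 had the highest ratio among members above the floor in both arrays. It is a membrane-bound ligand that holds and attracts T and natural killer cells bearing Cxcr6. Its brighter probe set read 149 in the control and 323 in the Hand2-null array, 2.17-fold higher, and the other read 150.2 and 312, a log2 ratio of 1.05. The name of that other probe set marks possible cross-hybridization. The value of 1.12 by the brighter probe set was above 98.5% of all measured genes. The other membrane-bound ligand, Cx3cl1, called fractalkine, was under the floor in both arrays on all its probe sets, at 60.1 and 44.1 on the brightest, so no ratio is given.

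The CXC ligands that draw neutrophils through Cxcr2 all pointed the same way where they could be read. Cxcl1 went from 454 to 849, 1.87-fold higher or a log2 ratio of 0.90. The other probe sets of Cxcl1 showed log2 ratios of 0.81 and 0.40. The names of the probe sets at 0.90 and 0.40 mark possible cross-hybridization, and that of the probe set at 0.81 does not. Cxcl2 was at 1754 in the control and 2780.5 in the Hand2-null array, 1.58-fold higher on 1 probe set. Cxcl3 was at 81.2 and 111, a log2 ratio of 0.46. These 3 genes lie beside each other in the genome with Pf4, the platelet chemokine, which was at 275 and 336 with a log2 ratio of 0.29. Their other neighbours Cxcl5 and Ppbp were under the floor in both arrays. Cxcl1, Cxcl2 and Cxcl3 are similar in sequence, and how much signal their probe sets share is not known here.

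Neutrophil markers were not higher beside these ligands. Of 6 neutrophil markers on the array, S100a8 read 192 and 105 and S100a9 138 and 70.0, lower in the Hand2-null array by log2 ratios of -0.86 and -0.98. Csf3r read 64.9 and 21.5, the second under the floor, and Mpo, Elane and Cxcr2 were under the floor in both arrays. The summed signal of the list was 452 in the control and 282 in the Hand2-null array.

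Cxcl10, an interferon-induced ligand of Cxcr3, read 157 and 294, a log2 ratio of 0.91 that lay above 97.3% of measured genes. It rests on 1 probe set. Its relatives Cxcl9 and Cxcl11, induced by the same cytokines, were under the floor in both arrays, with highest signals of 41.0 and 17.0. Of 14 measured genes of the interferon response 8 were higher and 6 lower, and the median was 0.14, from Ifit3 at 0.82 and Irf1 at 0.73 to Igtp, an interferon-induced GTPase, at -0.68.

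The remaining CXC ligands were led by Cxcl17, a mucosal chemokine, at 99.8 and 180.1, or 1.81-fold higher on 1 probe set. Cxcl12, the stromal ligand of Cxcr4, read 1666 and 2555, a log2 ratio of 0.62. Its second probe set, at 363 and 411, showed 0.18, and the third was under the floor in both arrays. The size of the Cxcl12 difference thus varied between its measured probe sets. Cxcl14, a homeostatic chemokine of epithelia, read 165 in both arrays, and its second probe set gave a log2 ratio of 0.15. The sign of the Cxcl14 ratio changed with the scaling. Cxcl13, which draws B cells into follicles, was under the floor in both arrays.

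Among CC ligands, the monocyte chemoattractants differed from one another. Ccl7 read 130.2 and 230.0, a log2 ratio of 0.82, and Ccl2 read 241 and 398, a log2 ratio of 0.72. Both bind Ccr2 on monocytes. Ccl12, another Ccr2 ligand, read 108 and 112, a log2 ratio of 0.05. Ccl8 read 1318 and 1585, a log2 ratio of 0.27. Ccl2, Ccl7, Ccl11, Ccl12 and Ccl8 lie in this order in the genome, and the first 3 had the higher ratios of the row. Each value rests on 1 probe set.

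Ccl11, called eotaxin, attracts eosinophils through Ccr3. Its only probe set read 45.1, under the floor, in the control and 129 in the Hand2-null array, so the difference is at least 2.01-fold. That bound is set by the control floor. It was below 2-fold after quantile normalization or loess, while the log2 ratio of Ccl11 was 1.51 with the floor at the 50th percentile or with none. The eosinophil markers Siglecf, Prg2, Epx, Ccr3 and Il5ra were all under the floor in both arrays, with sums of 71.7 and 101. Ccl24, the other eotaxin on the array, was under the floor in both.

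The macrophage inflammatory group lay closer to 0. Ccl4 read 140.3 and 213, a log2 ratio of 0.60, and Ccl9, a Ccr1 ligand described in rodents, read 218 and 284, a log2 ratio of 0.38 by the brighter probe set and 0.25 by the other. Ccl3 read 401 and 476, a log2 ratio of 0.25. Ccl6 read 953 and 973, a log2 ratio of 0.03, with -0.05 on its second probe set, whose name marks possible cross-hybridization. Ccl5, made by T and natural killer cells, was the ligand with the lowest ratio, -0.23, at 112 and 95.7. Ccl5, Ccl9, Ccl6, Ccl3 and Ccl4 are neighbours in the genome in this order, with a median log2 ratio of 0.25 against 0.72 for the row that runs from Ccl2 to Ccl8. The latter row includes Ccl11, which could not come out lower, and the difference was not tested.

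Of 8 CC and XC ligands grouped here by their action on lymphocytes, 3 were measured. Ccl28, a mucosal ligand of Ccr10, read 130.4 and 233, a log2 ratio of 0.84, with both other probe sets under the floor. Ccl27a, a skin ligand of the same receptor, read 81.3 and 105, a log2 ratio of 0.37. Its probe set may cross-hybridize, and probe sets that it shares with near-identical copies were outside the rule. Xcl1, released by natural killer and T cells, read 128 and 116, a log2 ratio of -0.13. Ccl1, Ccl17, Ccl20, Ccl22 and Ccl25 were under the floor in both arrays. Over all 12 ligands not measured, the signals of the representative probe sets ran from 2.24 to 60.1 in the control and from 1.29 to 44.1 in the Hand2-null array.

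Of the receptors 6 of 16 were measured, and 4 of these had a positive log2 ratio. Cxcr6, the receptor of Cxcl16, read 85.0 and 151, a log2 ratio of 0.83 that lay above 96.6% of measured genes. Its second probe set read 54.4, under the floor, and 132, at least 2.05-fold higher. Cxcr4 read 192 and 229, a log2 ratio of 0.26. Ccr1 read 71.2 and 83.6, near the floor, a log2 ratio of 0.23. Ccr2, the receptor of inflammatory monocytes, read 223 and 249, a log2 ratio of 0.16, with 0.15 by a second measured probe set.

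Cx3cr1, the fractalkine receptor of monocytes and tissue macrophages, was the receptor with the lowest ratio. It read 191 in the control and 124 in the Hand2-null array, 1.55-fold lower, and only 2.82% of measured genes had a lower ratio. Its second probe set was under the floor in both arrays. Cxcr3 read 70.2 and 64.7, around the floor. The other 10 receptors, Ccr3, Ccr4, Ccr6, Ccr7, Ccr8, Ccr9, Ccr10, Cxcr2, Cxcr5 and Xcr1, were under the floor in both arrays, with signals of 0.737 to 33.4 in the control and 0.488 to 30.0 in the Hand2-null array.

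Ligands and receptors could be set side by side in 10 known pairs with both measured. Cxcl16 and Cxcr6 were the one pair in which both log2 ratios passed 0.5, at 1.12 and 0.83. For Ccl2 and Ccl7 the ratios of 0.72 and 0.82 stood beside 0.16 for Ccr2. For Cxcl12 the ratio of 0.62 stood beside 0.26 for Cxcr4, and for Cxcl10 0.91 stood beside -0.06 for Cxcr3. In 7 further pairs the ligand was measured and its receptor was not, among them Cxcl1, Cxcl2 and Cxcl3 with Cxcr2, Ccl11 with Ccr3, Ccl28 and Ccl27a with Ccr10, and Xcl1 with Xcr1. Several pairs share a receptor and are not independent.

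**Figure D3:**
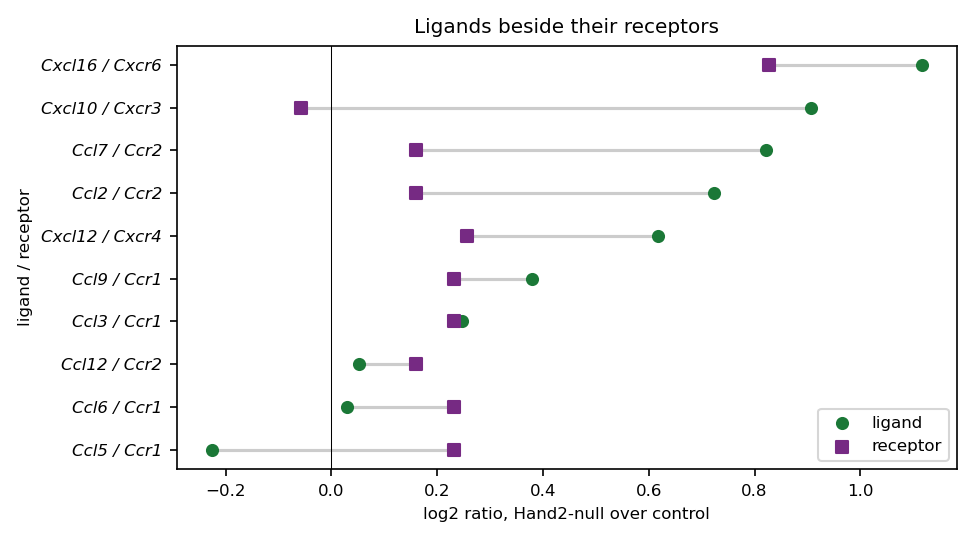
Log2 ratio of Hand2-null over control for the 10 ligand and receptor pairs with both genes measured, with ligands as circles and receptors as squares. Cxcl16 and Cxcr6 lie at 1.12 and 0.83, while Cxcl10 at 0.91 stands far from Cxcr3 at -0.06.

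The atypical receptors and other proteins that bind or process chemokines did not show the pattern of the ligands. In this list, 9 genes were measured, 5 of them higher and 4 lower, and the median was 0.01. Ackr3, a scavenger of Cxcl12, read 701 and 705, and Ackr1, an endothelial chemokine-binding receptor, read 142 and 116. Ackr2, a scavenger of inflammatory CC ligands, read 62.5, under the floor, and 117, a log2 ratio of at least 0.87. Adam10 and Adam17, which shed Cxcl16 and Cx3cl1 from the membrane, had log2 ratios of -0.18 and -0.09. Of 12 measured genes of signalling below the receptors 7 were higher and 5 lower, and the median was 0.04. The regulators of G protein signalling Rgs1 and Rgs2 lay at its ends, at 1.06 and -1.09.

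Response genes of NF-kB were higher beside the ligands. Of 16 measured genes 15 were higher, with a median of 0.39, and 0 were at least 2-fold higher. Over all measured genes 44.7% had a log2 ratio above 0. Relb and Rel, among the 15, were under the floor in the control array only, so that they could not come out lower. The feedback inhibitor Tnfaip3 read 398 and 764, a log2 ratio of 0.94, Nfkbie 0.81, Il6 0.77 and Nfkbiz 0.75, while Il1b was at -0.04. Of 16 immediate-early genes, which also respond to cell handling, 14 were higher with a median of 0.44. Their part in the chemokine values was not tested.

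Leukocyte markers differed in direction from one cell type to the next. Of 5 general leukocyte markers 3 were higher and 2 lower, at a median of 0.12, with summed signals of 2861 and 3056. Ptprc, the defining CD45 gene, read 754 and 821. Of 11 measured macrophage and monocyte markers 4 were higher and 7 lower, and the median was -0.05 with sums of 11177 and 10710.4, and Csf1r read 2277 and 2547. Of 6 measured dendritic cell markers 5 were higher, with a median of 0.42 and sums of 6051 and 8052. Most of these sums came from H2-Aa, at 3250 and 4145, H2-Ab1, at 1236 and 1798, and Cd74, at 1227 and 1690. Zbtb46 was lower, at 119 and 109, and Flt3, Ccr7 and Xcr1 were under the floor in both arrays. Of 7 measured natural killer cell markers 2 were higher and 5 lower, and the median was -0.34 with sums of 1081 and 937, and Ncr1 was under the floor. Klrk1, among the higher ones, was under the floor in the control array only. T cell markers were measured for 2 of 6 genes, with sums of 216 and 333, and Cd3g read 91.0 and 169 while Cd3e, Cd4 and Cd8a were under the floor. Cd3d, the other measured gene, was under the floor in the control array only. B cell markers were all under the floor, with sums of 58.4 and 67.4. In RNA of a cell mixture, fewer cells of a type and less RNA per cell cannot be told apart.

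Markers of other cell types of the uterine wall were read in the same way. Of 9 smooth muscle markers 9 were higher, and their median log2 ratio was 1.56 with sums of 15192 and 34284. Of 6 measured mesothelial markers 5 were higher, with a median of 0.86 and sums of 959 and 1439. Of those 5, 3 were under the floor in the control array only, Msln, Lrrn4 and Upk1b. All 4 lymphatic endothelial markers were higher, with a median of 0.93 and sums of 1214 and 2782. Vascular endothelial markers were higher in 2 of 10 and lower in 8, with a median of -0.33 and sums of 3693 and 3141. Epithelial markers were higher in 10 of 12, at a median of 0.25 and sums of 10206 and 11947. Of 7 mast cell markers 4 were measured and 3 of those were higher, with a median of 1.14 and list sums of 483 and 934. Kit was lower, at 192 and 130, and Tpsb2, Fcer1a and Ms4a2 were under the floor in both arrays. Myocd of the smooth muscle list, Prox1 of the lymphatic list and Mcpt4 of the mast cell list were also under the floor in the control array only. A gene measured in this way cannot come out lower, so these counts and medians are partly set by the filter. Whether these cells contributed to the chemokine signals was not tested.

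**Figure D4:**
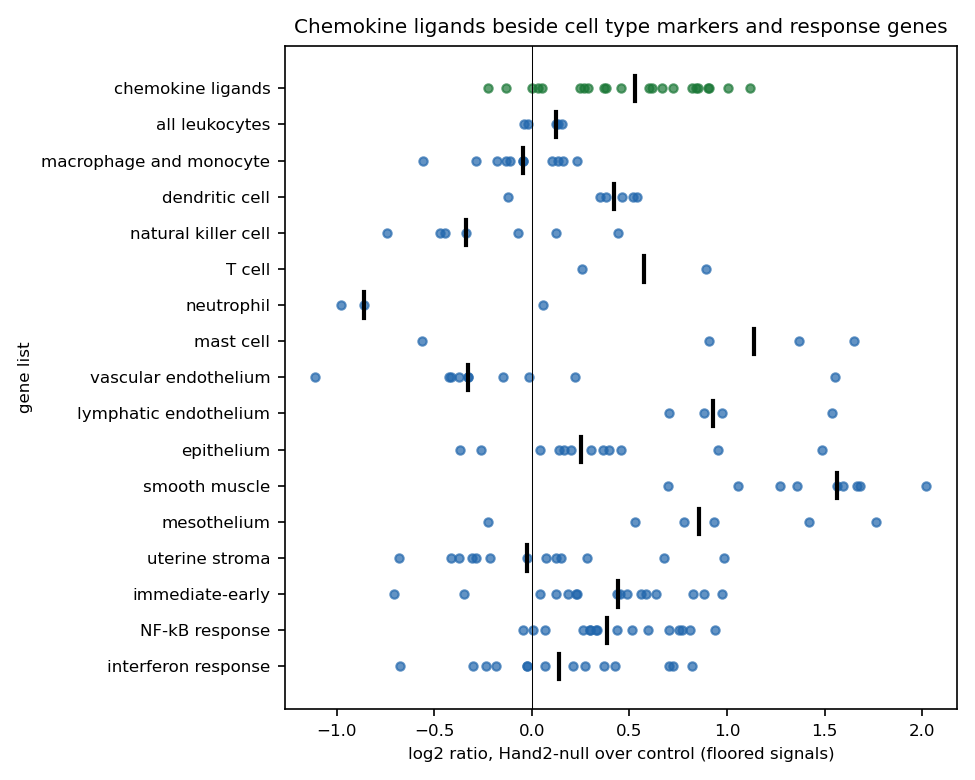
Log2 ratio of Hand2-null over control for each measured gene of the chemokine ligands and of the marker and response lists, 1 point per gene, with medians as black bars. The ligand median of 0.53 lies above the general leukocyte median of 0.12 and below the smooth muscle median of 1.56.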

How the data were processed

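The deposited array intensity values are linear MAS5 signals, and the submitters' processing notes name MAS5 and version 1 of Affymetrix Expression Console. With 2% trimmed from each end, the mean was 150.001 on both arrays. Further normalization and a genome build are not given in the sources used here. Of 45101 probe sets 64 controls were left out, and 34945 of the rest had 1 gene in the platform annotation, 932 several and 9160 none listed. A gene was represented by its brightest probe set (mean of log2 signals). Pathway and marker lists and the promoter motifs were chosen, like the members, with earlier results of these data known. The naming rule was that every measured member is given with both signals. Genes are called neighbours with at most 5 other protein-coding genes between them. Alternatives covered the floor, scaling, probe sets and thresholds. The steps were run on simulated arrays with planted differences larger than the log2 ratio of any measured member. That run cannot show how well smaller differences are recovered. The tools were pandas 2.3.3, numpy 2.4.6, statsmodels 0.14.6, scipy 1.17.1 and matplotlib 3.10.9 under Python 3.11.15.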

Additional observations from a re-analysis of the deposited data

Results flagged for a closer look

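A chemokine probe set outside the rule had a signal above the control level. It is annotated with 9 gene entries of the Ccl21 group, the ligands of Ccr7 made by lymphatic endothelium and lymphoid stroma, and so entered no comparison. It read 3167 in the control and 6382 in the Hand2-null array, 2.01-fold higher. All 4 lymphatic endothelial markers were higher in the same array, led by Lyve1 at 502 and 1459.6, and Ccr7 was under the floor in both. Their part in the Ccl21 value was not tested.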

How the results depend on the processing

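No paired analysis was possible because each genotype had 1 array. The count of 2 members at least 2-fold higher was 0 with the floor at the 75th percentile, 0 with a pseudo-signal equal to the floor, 1 after quantile normalization, 1 after loess, 4 over probe sets in place of genes and 6 with no floor, over 50 genes. With no floor 9.05% of all genes passed 2-fold upward and 8.94% downward, so that those 6 lie near the background. The upward share of all measured genes was 1.56% with the higher floor and 1.13% with the pseudo-signal. It was 1.93% after quantile normalization and 2.05% after loess, and 1.79% over probe sets. The member count was 12 at 1.5-fold and 0 at 3-fold, against 6.21% and 0.47% of all measured genes. Restricted to genes above the floor in both arrays, a choice made after seeing the data, the member count was 1, against 1.76% of all such genes. At 1.5-fold 1 member was lower, against 3.33% of all measured genes. With no floor the ligand median was 0.33 and its excess over the receptor median 0.13, and with the mean over probe sets that excess was 0.11. The ligand median was positive and above the receptor median under every alternative run. With the higher floor and with the mean over probe sets, however, the receptor median rested on only 3 genes. Cxcl16 fell short of 2-fold with the higher floor, at a log2 ratio of 0.99, and with the pseudo-signal, at 0.87. Ccl11 did so with the pseudo-signal, at 0.84, and after quantile normalization or loess, at 0.95 and 0.97, but its log2 ratio was 1.51, above that of Cxcl16, with the floor at the 50th percentile or with none. Of the 28 measured members 25 kept their sign under each alternative that gave them a value, 238 values in all, as some members had none with the higher floor, the mean over probe sets or without cross-hybridizing probe sets. The exceptions were Ccl6, Cxcl14 and Cxcl12, the last only where a probe set under the floor in both arrays was averaged in. The causes were not tested. Signals near or under the floor limit what can be read of 22 members, and the lack of replicates limits all.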
